A study of Sciaenops ocellatus with 36 samples.

Results

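The 10 rows examined here carry the human symbols of the core circadian clock: PER1, PER2, PER3, CRY1, CRY2, CLOCK, ARNTL, NR1D1, NR1D2 and RORB. They were picked by symbol from the 56346 rows of each deposited count table, and the list was proposed after fold changes of these data had been seen. The calls, SEs and adjusted p-values below therefore describe the genes and support nothing about the choice of them. The animals were whole red drum (Sciaenops ocellatus), a marine fish of coastal waters, collected as embryos at 24 and as larvae at 48 or 72 hours post-fertilization (hpf), with 30 animals pooled for each RNA library. The water of the oil groups held crude oil from the Deepwater Horizon spill. One oil was the non-weathered source oil (labelled MASS) at 0.27%, and the other was a naturally weathered slick oil (labelled OFS) at 2.50%. Each oil had its own control series at 0% oil, called here the source-series and the slick-series controls. All groups shared 25 °C, 14 h of light and 10 h of dark per day, and a bath of the embryos in 1 ppt formalin. Values came from 29 libraries in 10 groups. Slick oil was represented at 24, 48 and 72 hpf, and source oil only at 24 and 72 hpf. Among the controls, the source series covered 24, 48 and 72 hpf, and the slick series covered 24 and 48 hpf. Each group had 3 libraries, except for the slick-series controls at 24 hpf with 2. The remaining cells of this layout, 48 hpf for source oil and 72 hpf for slick-series controls, were not analysed here.

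The vertebrate clock is a loop of transcription and repression. CLOCK and ARNTL (also called BMAL1) pair and switch on the PER and CRY genes, whose proteins return to the nucleus and block that pair. In a second loop the nuclear receptors NR1D1 and NR1D2 (REV-ERB alpha and beta) repress ARNTL, while receptors of the ROR family, such as RORB, activate it. In zebrafish the peripheral tissues are directly light sensitive, and light induces per2 and cry1a. The levels of these transcripts change over the day. The labels do not give the hour of collection, so a difference between groups and a difference in the time of sampling cannot be told apart.

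Library totals were 4771973 to 5880716 counts in the table of source oil at 24 hpf, against 2532771 to 3280939 counts in the others. The 24 hpf source-oil table differs from the rest in which symbols carry counts, CRY2 being one, so levels are not compared between it and the other 23 libraries. Levels are counts scaled to library size and given as CPM after TMM scaling, and differences are log2 fold changes from edgeR's quasi-likelihood test, called at an adjusted p under 0.05 (Benjamini-Hochberg over all genes tested). Fish transcript lengths were not used, so levels are not compared between genes. Oil exposure was visible in CYP1A1, an aryl hydrocarbon receptor target, whose log2 fold change with oil was 4.01 and 3.60 with source oil at 24 and 72 hpf and 3.63, 3.57 and 3.63 with slick oil at 24, 48 and 72 hpf. Of 5 listed targets of that receptor, 3 or 4 were called higher in each oil comparison. In whole animals, fewer cells of a type and less RNA per cell cannot be told apart. Whether pools of a group shared a spawn or a tank is not in the labels, and the p-values reflect only how far these libraries spread.

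Of the 10 clock genes, 8 (PER1, PER2, PER3, CRY1, CLOCK, ARNTL, NR1D2 and RORB) had counts in all 29 libraries. NR1D1 is listed at 0 in each of them. APOA1 and ACTA1, known as abundant transcripts of liver and muscle, are also listed at 0 throughout, so a 0 here cannot be told apart from a symbol that was assigned no counts. CRY2, the second cryptochrome, had 518 to 885 counts in each of the 6 libraries of the 24 hpf source-oil table and 0 counts in the other 23, where the same holds. In those 6 libraries the CRY2 count was between 0.407 and 0.455 of the CRY1 count. The counts of CRY1 and CRY2 may share reads of the same fish transcripts, so their separate values are uncertain, as is any split among the fish copies of PER1. The filter on low counts kept 9 of the 10 in the 24 hpf source-oil comparison and 8 in every other.

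**Figure D1:**
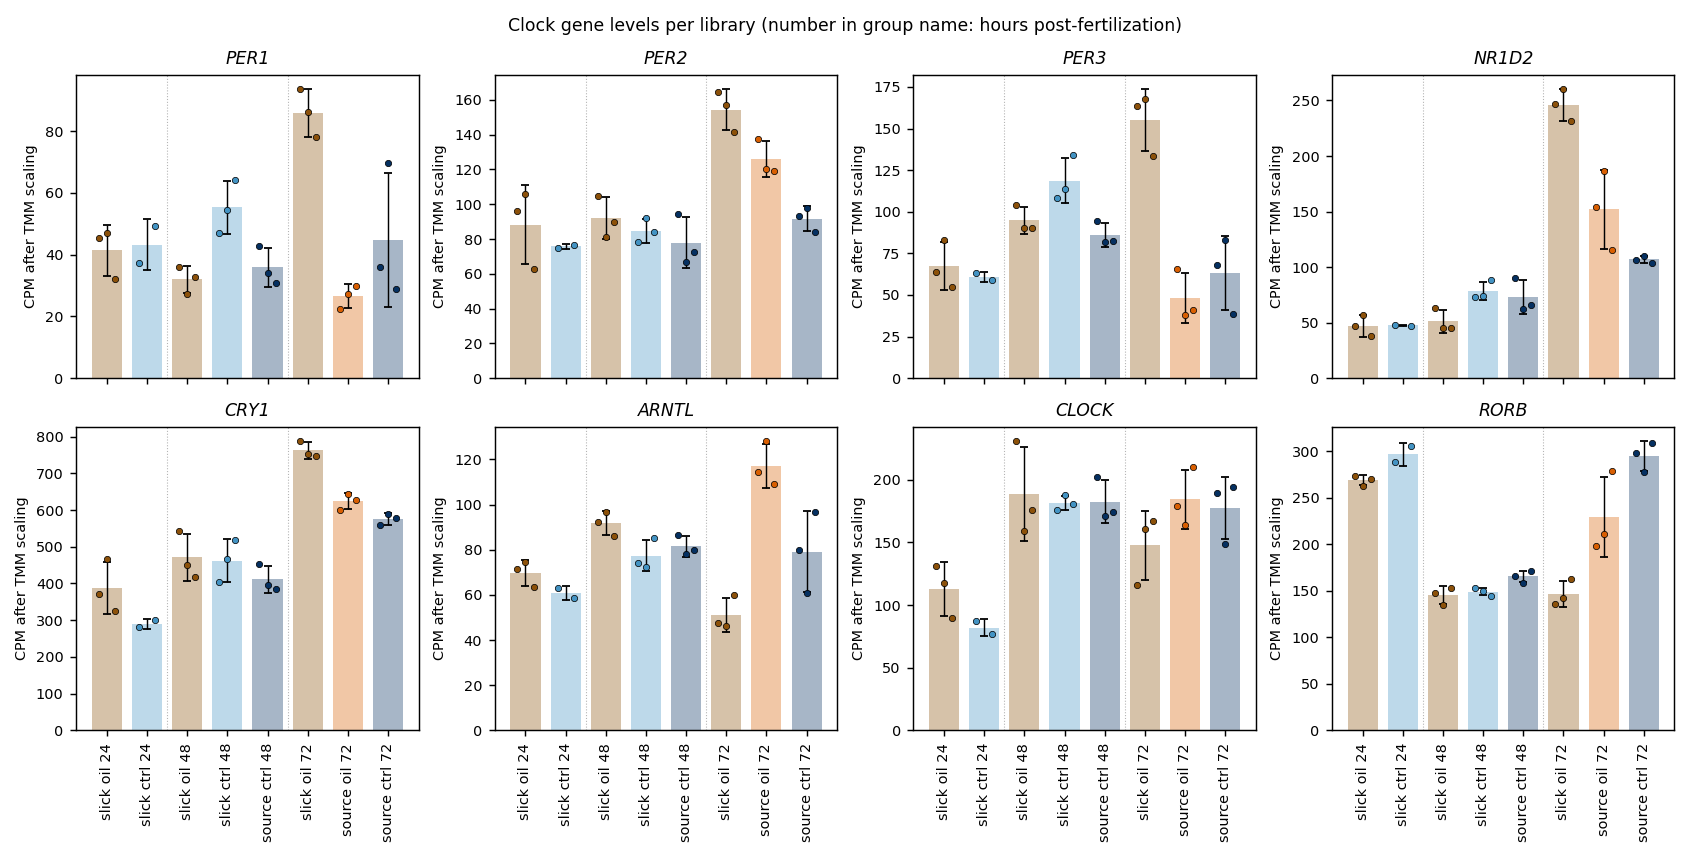
Level of 8 clock genes in CPM in the 23 libraries fitted jointly, by oil, series and hours post-fertilization, with points for libraries, bars for group means and error bars for the SD. Slick oil at 72 hpf holds the highest libraries of NR1D2, up to 259.9 CPM, and the lowest of ARNTL, down to 46.2 CPM.

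Of the oil comparisons, slick oil at 72 hpf had the most clock genes called. Set against the source-series controls, PER1, PER2, PER3, CRY1 and NR1D2 were higher and ARNTL and RORB were lower in slick-oil larvae. In all, 7 of 8 tested genes were called, 5 higher and 2 lower, where 18.6% of all genes tested were called either way, 8.55% higher and 10.1% lower. The same 7 genes did not overlap between the groups, against 33.4% of all genes. The median log2 fold change of the 8 was 0.60, beside 0.01 over all genes tested. The controls are those of the other series, so slick oil and series cannot be told apart in these values. At 48 hpf PER1 and PER3 were higher in slick-series than in source-series controls, by log2 differences of 0.62 and 0.46. Neither was called in the joint fit, and both were when the 2 control groups were fitted alone.

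Among the repressors, PER1 stood at 93.5, 86.3 and 78.1 CPM in slick-oil larvae, against 35.9, 69.6 and 28.9 CPM in source-series controls at 72 hpf. All 3 slick-oil libraries lay above the controls, of which library 8 was more than the other two and closest to the oil libraries. The log2 fold change of PER1 was 0.97 (SE 0.17, adjusted p = 5.68e-05 by edgeR's quasi-likelihood test), and DESeq2 did not call it (adjusted p = 0.0844). PER3 stood at 164, 168 and 134 CPM in slick-oil larvae, against 68.1, 82.8 and 38.9 CPM in the controls. Its groups were apart, and the log2 fold change was 1.32 (edgeR adjusted p = 2.65e-08, SE 0.14). PER2, the light-induced period gene of zebrafish, stood at 165, 157 and 142 CPM in slick-oil larvae, against 93.3, 98.0 and 84.1 CPM in the controls. The 3 oil libraries lay clear of the controls, with a log2 fold change of 0.77 (edgeR adjusted p = 2.34e-07, SE 0.09). CRY1, the partner of the PER proteins in blocking CLOCK and ARNTL, stood at 788, 752 and 747 CPM in slick-oil larvae, against 559, 590.1 and 577 CPM in the controls. This was a smaller difference between groups that are each narrow, with a log2 fold change of 0.42 (edgeR adjusted p = 0.000333, SE 0.08).

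The ARNTL repressor NR1D2 had the smallest adjusted p of the 8 genes in that comparison. NR1D2 stood at 247, 259.9 and 231 CPM in slick-oil larvae, against 107, 110.4 and 104 CPM in source-series controls. Even the lowest oil library lay at more than 2 times the highest control, and the log2 fold change was 1.22 (edgeR adjusted p = 4.99e-12, SE 0.09). Of the activators, ARNTL stood at 47.5, 46.2 and 59.9 CPM in slick-oil larvae, against 79.9, 60.6 and 96.6 CPM in the controls. The groups came within 1 CPM of each other at slick-oil library 9 and control library 8, and the log2 fold change was -0.62 (edgeR adjusted p = 0.000964, SE 0.13). RORB, an activator of ARNTL that retina and brain are known to express, stood at 136, 143 and 162 CPM in slick-oil larvae, against 298, 278 and 309 CPM in the controls. The oil libraries were all lower by a wide margin, with a log2 fold change of -0.99 (edgeR adjusted p = 7.61e-10, SE 0.09). CLOCK, the partner of ARNTL, stood at 116, 160.3 and 167 CPM in slick-oil larvae, against 189, 149 and 194 CPM in the controls. Its groups overlapped and it was not called (log2 fold change -0.25, SE 0.11, edgeR adjusted p = 0.118), though without control library 8 it was, at -0.37.

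**Figure D2:**
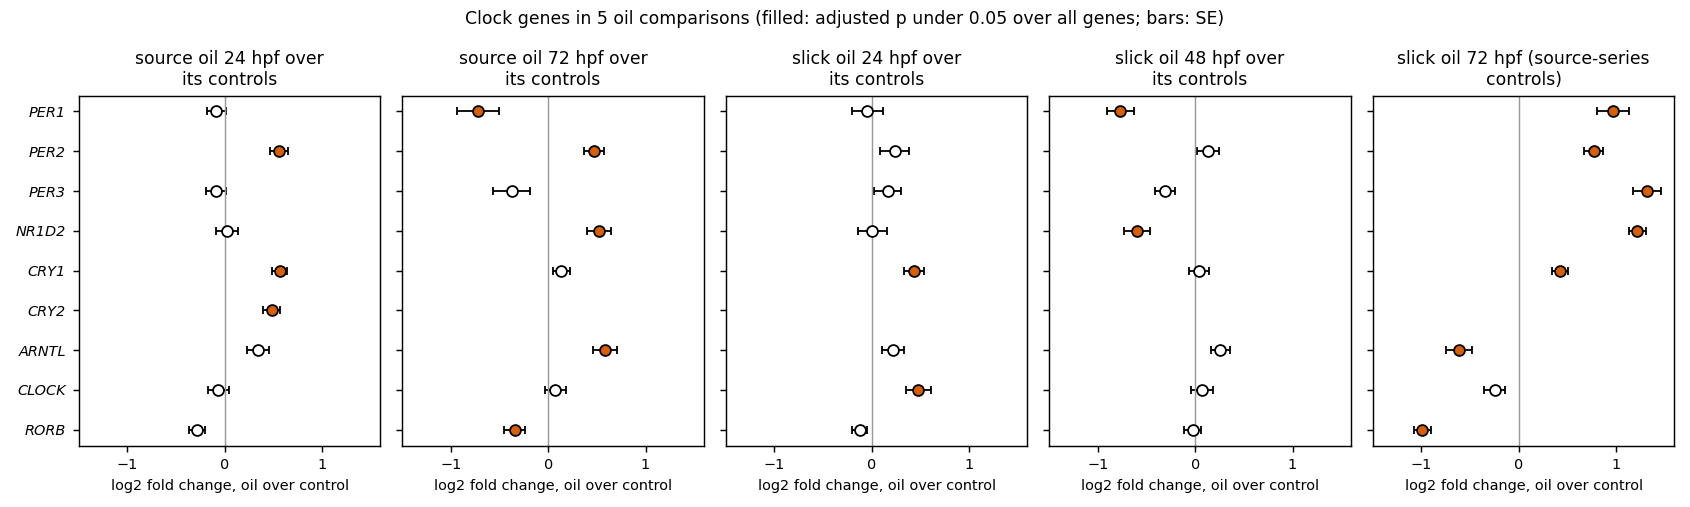
Log2 fold change of each tested clock gene, oil over control, in the 5 oil comparisons, with bars of 1 SE and filled points for an adjusted p under 0.05. The values for slick oil at 72 hpf run from -0.99 for RORB to 1.32 for PER3, and source and slick oil at 72 hpf share their 3 controls.

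Source oil at 72 hpf was set against the same 3 controls. Of 8 tested clock genes 5 were called, with PER2, ARNTL and NR1D2 higher and PER1 and RORB lower in source-oil larvae, where 20.4% of all genes tested were called either way, 11.4% higher and 9.04% lower. PER2, CRY1, ARNTL and NR1D2 had source-oil libraries all above the controls, so 4 of 8 did not overlap, against 34.9% of all genes. The median log2 fold change of the 8 was 0.11, beside 0.00 over all genes. Because the controls are shared, the values of the 2 oils are given side by side and no overlap of calls between them is drawn.

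ARNTL stood at 114, 128 and 109 CPM in source-oil larvae, against 79.9, 60.6 and 96.6 CPM in source-series controls. All source-oil libraries lay above the controls, with a log2 fold change of 0.58 (SE 0.13, adjusted p = 0.00136 by edgeR's quasi-likelihood test). NR1D2 stood at 154, 186 and 115 CPM in source-oil larvae, and its controls were the narrow set from 104 to 110.4 CPM. The oil libraries were spread widely above them, with a log2 fold change of 0.53 (edgeR adjusted p = 0.00299, SE 0.12) that was 0.35 and not called without source-oil library 8. PER2 stood at 138, 120.2 and 119 CPM in source-oil larvae, against 93.3, 98.0 and 84.1 CPM in the controls. The groups were apart, with a log2 fold change of 0.47 (edgeR adjusted p = 0.00168, SE 0.11).

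PER1 stood at 22.4, 27.3 and 29.9 CPM in source-oil larvae, against 35.9, 69.6 and 28.9 CPM in the controls. The groups overlapped, since control library 9 was below source-oil library 9. The log2 fold change of PER1 was -0.72 (SE 0.22, adjusted p = 0.0190 by edgeR's quasi-likelihood test), and it was -0.26 and not called without control library 8, -0.62 and not called without source-oil library 7, and not called by DESeq2 (adjusted p = 0.255). RORB stood at 198, 212 and 279 CPM in source-oil larvae, against 298, 278 and 309 CPM in the controls. Its highest oil library just reached the lowest control, with a log2 fold change of -0.34 (edgeR adjusted p = 0.0251, SE 0.11). The call of RORB was lost without control library 9 (-0.31), source-oil library 7 (-0.26) or source-oil library 8 (-0.29). PER3 (log2 fold change -0.38, SE 0.19), CRY1 (0.14, SE 0.09) and CLOCK (0.07, SE 0.11) were not called. PER3 was called without control library 9 (-0.64) or without source-oil library 7 (-0.67).

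The 3 source-series controls at 72 hpf differed from each other in the clock genes. Library 8 was the highest of the 3 in PER1 and PER3 and the lowest in ARNTL, CLOCK and RORB. Library 9 was the lowest of the 3 in PER1 and PER3 and the highest in ARNTL, CLOCK and RORB. NR1D2 and CRY1 varied little in the same libraries, from 104 to 110.4 CPM and from 559 to 590.1 CPM. Both 72 hpf comparisons rest on these 3 controls. With any 1 of them left out, ARNTL kept its call with both oils, and PER1 and PER3 kept theirs with slick oil. With source oil PER1 lost its call without library 8. Without library 9 RORB lost its call and PER3 was called. With slick oil CLOCK was called without library 8.

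The 2 oils were also set directly against each other at 72 hpf, in a joint fit of the 23 libraries. Of 8 clock genes 5 were called, where 14.8% of all genes tested were called. PER1 had a log2 difference, slick minus source oil, of 1.69 (SE 0.20) and PER3 one of 1.70 (SE 0.17), both higher in slick-oil larvae (adjusted p = 2.57e-07 and 1.76e-08 by edgeR's quasi-likelihood test). PER3 stood at 164, 168 and 134 CPM in slick-oil larvae, against 65.6, 37.8 and 40.9 CPM in source-oil larvae, with no overlap. ARNTL was lower in slick-oil larvae by a log2 difference of -1.20 (edgeR adjusted p = 1.76e-08, SE 0.12), the opposite order to PER1 and PER3. NR1D2 was higher in slick-oil larvae (0.69, SE 0.13, edgeR adjusted p = 0.000293), and RORB was lower (-0.65, SE 0.10, edgeR adjusted p = 1.42e-05). PER2 (0.30, SE 0.13, edgeR adjusted p = 0.111), CRY1 (0.29, SE 0.10, edgeR adjusted p = 0.0531) and CLOCK (-0.32, SE 0.14, edgeR adjusted p = 0.111) were not called. CRY1 was called by DESeq2 (0.30), with RLE scaling (0.30) and with no filter on low counts (0.33). Fitted on the 2 oil groups alone, PER2 (0.31) and CRY1 (0.30) were both called. In total, 7 of the 8 did not overlap between the 2 oils, CLOCK being the exception, where 31.2% of all genes did not. In the same contrast 6 of 7 liver markers and 5 of 5 muscle markers were lower with slick oil (medians -0.87 and -0.50), and 3 of 8 neuron and 2 of 10 photoreceptor and pineal markers were higher. Their part in the clock gene differences was not tested. No clean-water control is used in these differences, and oil, dose, series and time of sampling cannot be told apart.

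At 48 hpf only slick oil could be compared, here with controls of its own series. PER1 and NR1D2 were lower in slick-oil larvae, so that 2 of 8 tested clock genes were called, both lower, where 2.68% of all genes were called either way and 0.759% lower. The median log2 fold change of the 8 was 0.01, beside 0.00 over all genes. PER1 stood at 36.0, 27.2 and 32.9 CPM in slick-oil larvae, against 47.1, 54.6 and 64.2 CPM in slick-series controls. Every oil library was below every control, with a log2 fold change of -0.77 (SE 0.14, adjusted p = 0.00503 by edgeR's quasi-likelihood test). NR1D2 stood at 63.2, 45.0 and 45.3 CPM in slick-oil larvae, against 73.3, 73.9 and 88.0 CPM in the controls. Its groups were likewise apart, with a log2 fold change of -0.60 (edgeR adjusted p = 0.0228, SE 0.13). The call of PER1 was lost without slick-oil library 5 (-0.67), and that of NR1D2 without control library 5 (-0.64) or 6 (-0.51) or slick-oil library 5 (-0.52) or 6 (-0.52).

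PER3 and ARNTL lay apart in the 48 hpf comparison without being called. PER3 stood at 104, 90.0 and 90.5 CPM in slick-oil larvae, against 108, 113 and 134 CPM in slick-series controls (log2 fold change -0.31, SE 0.10, adjusted p = 0.130 by edgeR's quasi-likelihood test). ARNTL stood at 92.3, 96.7 and 86.2 CPM in slick-oil larvae, against 74.3, 72.5 and 85.4 CPM in the controls (0.26, SE 0.10, edgeR adjusted p = 0.190). Together, 4 of 8 clock genes did not overlap, where 20.9% of all genes did not overlap. PER2 (0.13, SE 0.11), CRY1 (0.04, SE 0.11), CLOCK (0.07, SE 0.12) and RORB (-0.03, SE 0.08) overlapped and were not called. Leaving out slick-oil library 4 brought PER3 past the threshold at -0.38.

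The slick-oil values of PER1, PER3 and NR1D2 were below 0 at 48 hpf and above 0 at 72 hpf, while those of PER2 and CRY1 were above 0 at both ages. The difference of the slick-oil effects, 72 minus 48 hpf, was called for 6 of 8 clock genes, where 7.13% of all genes were called in that contrast. It was 1.73 for PER1 (SE 0.27), 0.63 for PER2 (SE 0.19), 1.62 for PER3 (SE 0.23) and 1.81 for NR1D2 (SE 0.20) on the log2 scale. For ARNTL it was -0.88 (SE 0.17) and for RORB -0.97 (SE 0.14). The adjusted p-values by edgeR's quasi-likelihood test ran from 2.2e-06 for NR1D2 to 0.0319 for PER2. CRY1 (0.38, SE 0.15) and CLOCK (-0.32, SE 0.19) were not called. The call of PER2 was lost, at 0.55 to 0.64, without 48 hpf control library 5 or 6, 48 hpf slick-oil library 5 or 6, 72 hpf control library 9, or 72 hpf slick-oil library 7 or 8. CRY1 was called without 48 hpf control library 4 (0.47) or 48 hpf slick-oil library 4 (0.49). The controls were of the slick series at 48 hpf and of the source series at 72 hpf, so age and control series cannot be told apart in this difference. In the same contrast 3 of 7 liver, 1 of 5 muscle and 1 of 10 photoreceptor and pineal markers were called lower and 1 of 8 neuron markers higher, and their part was not tested.

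At 48 hpf the control series themselves could be compared. In the joint fit 0 of 8 clock genes were called between slick-series and source-series controls by edgeR's quasi-likelihood test and 0 by DESeq2. By edgeR's test 5.16% of all genes were called, and 2 of the 8 had an unadjusted p under 0.05. PER1 stood at 47.1, 54.6 and 64.2 CPM in slick-series controls, against 42.9, 33.9 and 30.9 CPM in source-series controls. The slick series was higher throughout, with a log2 difference of 0.62 (edgeR adjusted p = 0.0562, SE 0.20). PER3 stood at 108, 113 and 134 CPM in slick-series controls, against 94.3, 81.9 and 82.3 CPM in source-series controls. Again the groups were apart, with a log2 difference of 0.46 (edgeR adjusted p = 0.0852, SE 0.16). Fitted on the 2 control groups alone, both were called (PER1 0.61, PER3 0.45), and PER1 was called in the joint fit without slick-series library 4 (0.72) or source-series library 4 (0.76). The other 6 genes differed by -0.15 (RORB) to 0.17 (CRY1), and RORB also did not overlap, so that 3 of 8 were apart where 24.3% of all genes were.

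**Figure D3:**
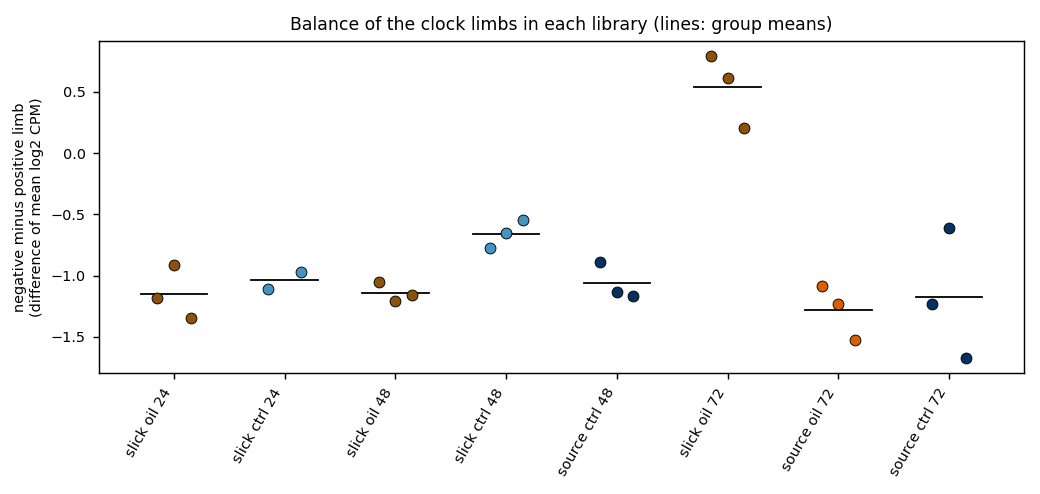
Balance of the clock limbs in each library, as the mean log2(CPM + 0.5) of PER1, PER2, PER3 and NR1D2 minus that of ARNTL, CLOCK and RORB, by group in the 23 libraries fitted jointly, with the group mean as a line. The 3 slick-oil libraries at 72 hpf, at 0.79, 0.61 and 0.21, lie above every other library, and only the order of libraries can be read, since the 0 of the scale depends on the levels of different genes.

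How repressors and activators stood to each other can be put as 1 value per library. It is the mean log2 level of PER1, PER2, PER3 and NR1D2 minus that of ARNTL, CLOCK and RORB, with CRY1 left out. At 72 hpf this balance was 0.79, 0.61 and 0.21 in slick-oil larvae and -1.09, -1.24 and -1.52 in source-oil larvae, against -1.23, -0.61 and -1.67 in source-series controls. Slick-oil larvae stood above all others, and source-oil larvae stood within the range of the controls. At 48 hpf it was -1.05, -1.21 and -1.16 in slick-oil larvae, against -0.77, -0.65 and -0.55 in slick-series controls. There the slick-oil larvae were lower throughout. They lay near the source-series controls, whose values were -0.89, -1.13 and -1.17, with slick-oil library 5 (-1.21) below them all. At 24 hpf it was -1.18, -0.92 and -1.34 with slick oil, against -1.11 and -0.97 in slick-series controls, and the groups overlapped. In the separate table it was -0.80, -0.93 and -0.90 with source oil at 24 hpf, against -1.01, -0.95 and -0.99 in the controls, with the groups only just apart. The balance is a description of the chosen genes and carries no test.

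At 24 hpf the cryptochromes and PER2 were the clock genes called with source oil. Of 9 tested clock genes 3 were called, all higher in source-oil embryos, where 5.42% of all genes tested were called either way, 3.98% higher and 1.44% lower. CRY1 stood at 361, 321 and 333 CPM in source-oil embryos, against 238, 226 and 223 CPM in source-series controls. All oil libraries were above the controls by a wide margin, with a log2 fold change of 0.56 (SE 0.07, adjusted p = 1.5e-05 by edgeR's quasi-likelihood test). CRY2 stood at 159, 131 and 135 CPM in source-oil embryos, against 107, 96.3 and 101 CPM in the controls. It moved with CRY1, with which it may share reads, by 0.48 (edgeR adjusted p = 0.000701, SE 0.08). PER2 stood at 84.6, 91.0 and 102 CPM in source-oil embryos, against 57.1, 66.2 and 65.0 CPM in the controls. The groups were apart, with a log2 fold change of 0.56 (edgeR adjusted p = 0.000357, SE 0.09).

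Which control column is used bears on these calls. The table holds a second control column with the same library name, which was left out. Slick-series control 1 of the same age has no column under its own name. Whether the second column is that slick-series sample could not be settled. In that column PER2 stood at 91.2 CPM, within the range of the source-oil embryos, while CRY1 stood at 279 CPM and CRY2 at 123 CPM, both below them. The left-out column was put in place of source-series library 1, an alternative chosen after seeing the data. CRY1 alone of the 9 genes was then called (log2 fold change 0.48, adjusted p = 0.0133 by edgeR's quasi-likelihood test). PER2 was then at 0.32 (edgeR adjusted p = 0.293) and CRY2 at 0.41 (edgeR adjusted p = 0.0543). Without either column, PER2, CRY1 and CRY2 were all called. The authors' deposited table lists both columns among its controls, so its values may rest on another set of libraries than this fit. There PER2 had a log2 fold change of 0.35 with an authors' adjusted p of 0.111, and CRY1 one of 0.45 with 0.000142. CRY2 had one of 0.37 with 0.0148, and RORB one of -0.34 with 0.0448.

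RORB stood at 210.2, 228 and 261 CPM in source-oil embryos, against 270.5, 269 and 309 CPM in source-series controls. Its groups did not overlap, yet it was not called (log2 fold change -0.28, SE 0.08, adjusted p = 0.0547 by edgeR's quasi-likelihood test). ARNTL stood at 54.6, 72.8 and 82.5 CPM in source-oil embryos, against 54.0, 54.3 and 56.6 CPM in the controls, and was not called (0.34, SE 0.12, edgeR adjusted p = 0.101). Source-oil library 1 lay within the controls of ARNTL and the others above, and without that library ARNTL was called at 0.50. Without source-oil library 3 RORB was called at -0.37. PER1 (-0.09, SE 0.10), PER3 (-0.09, SE 0.10), CLOCK (-0.06, SE 0.11) and NR1D2 (0.02, SE 0.12) were not called. In all, 4 of 9 did not overlap, where 20.5% of all genes did not, and the median log2 fold change of the 9 was 0.02, beside -0.01 over all genes.

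Slick oil at 24 hpf gave 2 calls of 8, CRY1 and CLOCK, both higher in oil embryos, where 2.19% of all genes tested were called either way, 1.62% higher and 0.569% lower. CRY1 stood at 372, 465 and 325 CPM in slick-oil embryos, against 280.1 and 300 CPM in slick-series controls. The oil libraries lay above both controls and were themselves widely spread, with a log2 fold change of 0.44 (SE 0.10, adjusted p = 0.0182 by edgeR's quasi-likelihood test). CLOCK stood at 131, 118 and 89.6 CPM in slick-oil embryos, against 87.0 and 77.1 CPM in the controls. Slick-oil library 3 came close to the higher control, and the log2 fold change was 0.48 (edgeR adjusted p = 0.0438, SE 0.13). DESeq2 called neither gene (adjusted p = 0.697 and 0.217), and both calls were lost when control library 2 or 3 or slick-oil library 1 or 2 was left out. ARNTL above and RORB below the controls were also apart, so that 4 of 8 did not overlap, where 28.7% of all genes did not with only 2 controls. PER2 (0.24, SE 0.15), ARNTL (0.22, SE 0.12), PER3 (0.16, SE 0.14), NR1D2 (0.01, SE 0.15), PER1 (-0.05, SE 0.16) and RORB (-0.12, SE 0.08) were not called, and PER2 was called at 0.43 without slick-oil library 3.

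Slick-oil effects at 48 hpf did not differ from those at 24 hpf by a call. Of 8 clock genes 0 were called in that difference by edgeR's quasi-likelihood test and 0 by DESeq2, as were 0% of all genes by edgeR's test. At an unadjusted p under 0.05 there were 3, PER1 (-0.71, SE 0.30), CRY1 (-0.39, SE 0.16) and NR1D2 (-0.60, SE 0.24).

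Clock genes also changed with age in unexposed fish, as did 42.4% and 31% of all genes in the 2 contrasts of control ages. Between 24 and 48 hpf in slick-series controls, 6 of 8 were called, 5 higher and 1 lower at 48 hpf, where 42.4% of all genes were called, 21.4% higher and 21% lower. CLOCK stood at 176, 188 and 181 CPM at 48 hpf, against 87.0 and 77.1 CPM at 24 hpf, a log2 difference of 1.15 (SE 0.16, adjusted p = 4.15e-07 by edgeR's quasi-likelihood test). RORB stood at 153, 150 and 145 CPM at 48 hpf, against 288 and 306 CPM at 24 hpf, a log2 difference of -0.99 (edgeR adjusted p = 1.03e-09, SE 0.10). The ages did not overlap in either gene, nor in 7 of the 8 genes, where 62.6% of all genes did not overlap. PER3 (0.96, SE 0.19), NR1D2 (0.72, SE 0.18), CRY1 (0.67, SE 0.12) and ARNTL (0.35, SE 0.14) were the others higher at 48 hpf. PER1 (0.34, SE 0.22) and PER2 (0.16, SE 0.16) were not called. Between the same ages 8 of 10 photoreceptor and pineal markers were higher at 48 hpf and 1 was lower (median 4.33). Of 8 neuron markers, 7 were higher and 1 was lower (median 1.43). For liver 7 of 7 and for muscle 5 of 5 markers were lower (medians -2.45 and -0.71). The part of these markers in the age differences was not tested. The call of ARNTL was lost by DESeq2 (0.34) and without 48 hpf library 6 (0.27) or 24 hpf library 2 (0.41) or 3 (0.31).

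Between 48 and 72 hpf in source-series controls, 4 of 8 were called, 3 higher and 1 lower at 72 hpf, where 31% of all genes were called, 17.5% higher and 13.5% lower. RORB stood at 298, 278 and 309 CPM at 72 hpf, against 166, 159 and 171 CPM at 48 hpf, a log2 difference of 0.83 (SE 0.09, adjusted p = 8.06e-09 by edgeR's quasi-likelihood test). Its ages were far apart, and they were also apart for NR1D2 (0.55, SE 0.15) and CRY1 (0.49, SE 0.10). Thus 3 of 8 did not overlap, where 40.5% of all genes did not, a count near the background. PER3 was lower at 72 hpf (-0.45, SE 0.17, edgeR adjusted p = 0.0450), a call lost by DESeq2 (-0.44), without any of the 3 libraries at 48 hpf, and without library 7 (-0.51) or 9 (-0.19) at 72 hpf. PER1 (0.31, SE 0.20), PER2 (0.24, SE 0.14), CLOCK (-0.04, SE 0.13) and ARNTL (-0.04, SE 0.12) were not called. PER1 was at -0.15 without 72 hpf library 8 and was called at 0.55 without library 9, and PER2 was called at 0.40 without 48 hpf library 4. Of 10 photoreceptor and pineal markers, 5 were higher and 2 lower at 72 hpf. Of 8 neuron markers, 4 were higher and 2 lower. For liver 4 of 7 and for muscle 2 of 5 markers were higher. The part of these markers was not tested.

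The same ages under slick oil gave 5 of 8 calls between 24 and 48 hpf, 4 higher and 1 lower at 48 hpf. Of all genes 39% were called, 20.4% higher and 18.6% lower. Between these groups 4 of 8 did not overlap, where 47.4% of all genes did not, again near the background. CLOCK (0.74, SE 0.13), PER3 (0.50, SE 0.17), ARNTL (0.40, SE 0.12) and CRY1 (0.28, SE 0.10) were higher and RORB (-0.89, SE 0.09) lower at 48 hpf. The calls of PER3 and CRY1 were lost by DESeq2 (0.48 and 0.27) and without 48 hpf library 4 (0.43 and 0.17) or 24 hpf library 1 (0.46 and 0.25) or 3 (0.37 and 0.17). Between 48 and 72 hpf under slick oil 7 of 8 were called, 5 higher and 2 lower at 72 hpf, where 40.6% of all genes were called, 21.4% higher and 19.2% lower. NR1D2 stood at 247, 259.9 and 231 CPM at 72 hpf, against 63.2, 45.0 and 45.3 CPM at 48 hpf. That 4.80-fold difference (log2 2.26, SE 0.14, adjusted p = 9.63e-15 by edgeR's quasi-likelihood test) was the largest of any clock gene in the contrasts fitted here. PER1 was higher by 1.42 (SE 0.19), PER2 by 0.75 (SE 0.13), PER3 by 0.71 (SE 0.16) and CRY1 by 0.69 (SE 0.10), while ARNTL (-0.84, SE 0.12) and CLOCK (-0.35, SE 0.13) were lower. The call of CLOCK was lost by DESeq2 (-0.35) and without 72 hpf library 7 (-0.21) or 48 hpf library 4 (-0.18). RORB was level between these ages under slick oil (0.02, SE 0.10), where it was higher at the later age in source-series controls, a contrast that was not tested. The groups of RORB and CLOCK overlapped, and 6 of 8 did not, where 49.9% of all genes did not overlap.

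The order of the 8 group means in the joint libraries differed by gene. CRY1 ran from 762 ± 22.1 CPM in slick oil at 72 hpf through 624 ± 21.7 CPM in source oil at 72 hpf and 576 ± 15.4 CPM in source-series controls at 72 hpf (SD, n = 3 each), none of which overlapped its neighbour, down to 290.1 ± 14.1 CPM in slick-series controls at 24 hpf (SD, n = 2). NR1D2 had the same 3 groups at the top in the same order, at 246 ± 14.4, 152 ± 35.7 and 107 ± 3.36 CPM (SD, n = 3 each), with no overlap between neighbours. The lowest NR1D2 means were 47.1 ± 9.65 CPM in slick oil at 24 hpf (SD, n = 3) and 47.4 ± 0.453 CPM in slick-series controls at 24 hpf (SD, n = 2), which overlapped. ARNTL was highest in source oil at 72 hpf at 117 ± 9.75 CPM and lowest in slick oil at 72 hpf at 51.2 ± 7.54 CPM (SD, n = 3 each). RORB was highest in slick-series controls at 24 hpf at 297 ± 12.4 CPM (SD, n = 2) and in source-series controls at 72 hpf at 295 ± 15.9 CPM (SD, n = 3), which overlapped.

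**Figure D4:**
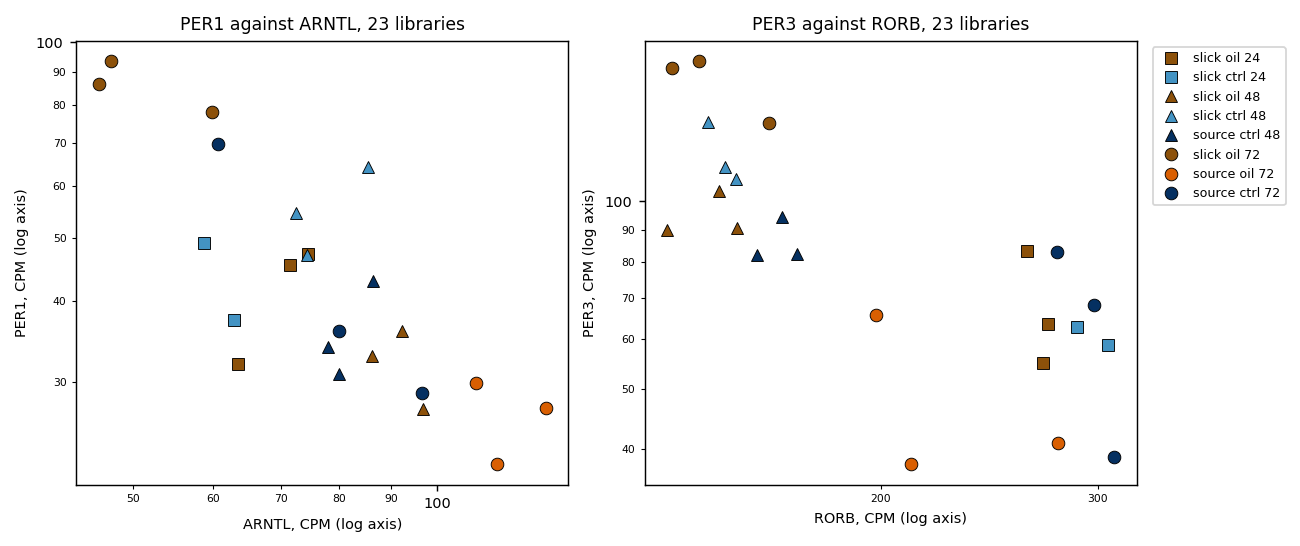
Levels of PER1 against ARNTL and of PER3 against RORB, all in CPM on log axes, 1 point per library of the 23 fitted jointly, coloured by oil and series and shaped by age. Slick-oil libraries at 72 hpf lie at high PER1 and low ARNTL, and source-oil libraries of that age lie at low PER1 and high ARNTL.

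Levels of PER1 and ARNTL ran against each other over the 23 libraries, with a Pearson correlation of -0.80 on the log2 scale, and of -0.46 for the deviations from the group means. The points share libraries, groups and scaling, so these are descriptions. PER3 and RORB likewise stood at -0.76 (-0.49 within groups). PER1 and PER3 correlated at 0.74 over all libraries and 0.55 within groups. CRY1 with NR1D2 stood at 0.90 (0.74 within groups), CRY1 with PER2 at 0.85 (0.71) and PER2 with NR1D2 at 0.84 (0.71). These genes and the pair of PER1 and PER3 were not separate sets within groups. There PER2 with PER3 stood at 0.62, PER1 with PER2 at 0.57 and PER1 with CRY1 at 0.56 (0.32, 0.42 and 0.35 over all libraries). PER3 with CRY1 (0.38), PER1 with NR1D2 (0.40) and PER3 with NR1D2 (0.41) were lower within groups. CLOCK with ARNTL stood at 0.56 (0.43 within groups). Not every repressor ran against ARNTL. PER3 with ARNTL stood at -0.57 (-0.44 within groups), but NR1D2 with ARNTL at -0.11 (0.29), PER2 at -0.11 (0.00054) and CRY1 at 0.05 (0.27). ARNTL with its activator RORB stood at 0.05 (0.13 within groups). Among the 9768 genes of the joint fit, with the clock genes left out, the gene most like CLOCK was NPAS2, its paralog, at 0.98, with which it may share reads. For NR1D2 the most like gene was ATP8B2 (0.95), for CRY1 FAXC (0.95), for PER2 NBR1 (0.90), for RORB TCP1 (0.90), for PER3 TTC9B (0.88), for ARNTL TSPAN12 (0.78) and for PER1 ZNF395 (0.74).

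**Figure D5:**
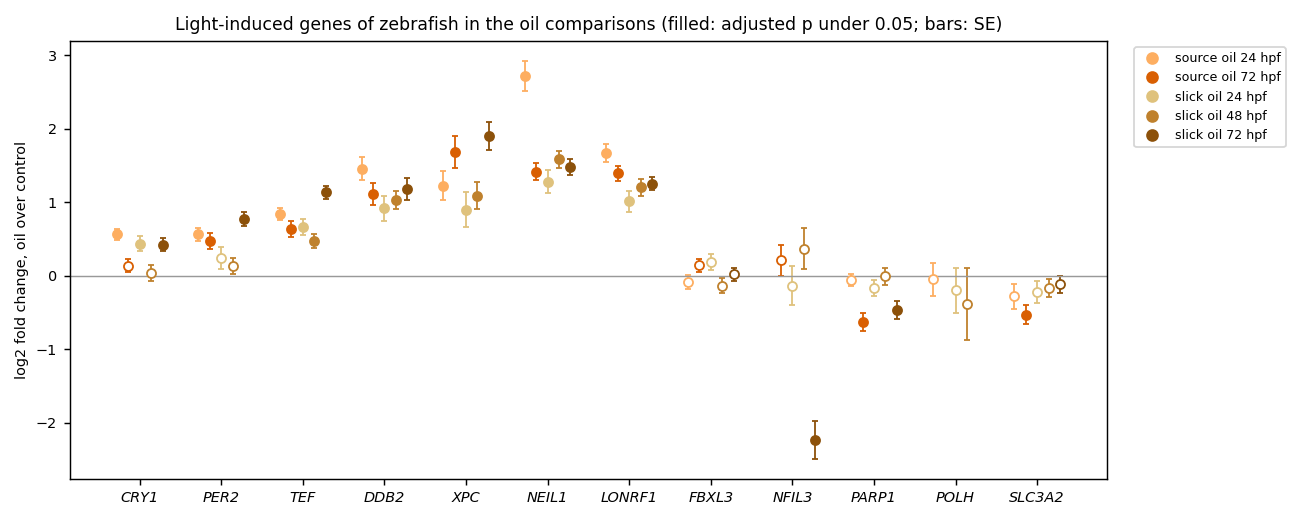
Log2 fold change, oil over control, of the measured genes that light induces in zebrafish, in the 5 oil comparisons, with bars of 1 SE and filled points for an adjusted p under 0.05. DDB2, XPC, NEIL1, LONRF1 and TEF are above 0 in each, while NFIL3 is at -2.24 with slick oil at 72 hpf.

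PER2 and CRY1 are among the genes that light induces in zebrafish, and 11 further genes of that kind were listed. This list and those that follow were drawn up with earlier results of these data known, so their counts are descriptions. TEF and NFIL3 also stand among the clock outputs below, so their calls appear in both lists. Of the 11, 5 were higher with oil in every oil comparison. The number measured was 9 with source oil at 24 and at 72 hpf, 10 with slick oil at 24 and at 48 hpf, and 9 with slick oil at 72 hpf. The share of all genes called higher was 3.98% and 11.4% with source oil at 24 and 72 hpf, and 1.62%, 1.92% and 8.55% with slick oil at 24, 48 and 72 hpf. The 5 were DDB2 and XPC, which recognise damage for nucleotide excision repair, NEIL1, a DNA glycosylase, LONRF1, and TEF, an activator at D-box elements through which zebrafish per2 responds to light. NEIL1 averaged 125 ± 9.08 CPM with source oil and 131 ± 15 CPM with slick oil, against 47.3 ± 3.60 CPM in source-series controls, at 72 hpf (SD, n = 3 each). Over the 5 comparisons the log2 fold changes of NEIL1 ran from 1.28 to 2.72, of LONRF1 from 1.01 to 1.67, of XPC from 0.90 to 1.90, of DDB2 from 0.91 to 1.46 and of TEF from 0.47 to 1.13. CRY1 and PER2 were each called higher in 3 of 5 (PER2 with source oil at 24 hpf not with the second column of control 1), with ranges of 0.04 to 0.56 and of 0.13 to 0.77. PARP1 was lower with both oils at 72 hpf, SLC3A2 with source oil and NFIL3 with slick oil at that age. The list's median log2 fold change ran from 0.42 to 1.13, and the comparisons at 72 hpf share their controls. With slick oil at 24 hpf the count of 5 was 2 without control library 2, 3 by DESeq2 and 1 with a 48 hpf library added as a control.

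Genes downstream of the clock were called in greatest number with slick oil at 72 hpf. Of 11 measured clock outputs, 3 were higher there and 4 lower, where 8.55% of all genes were called higher and 10.1% lower, and DESeq2 called 4 of the 11. NFIL3, a repressor that competes with TEF and DBP for D-box elements and that NR1D receptors repress in mammals, stood at 4.10 ± 0.771 CPM in slick-oil larvae and 22.6 ± 7.50 CPM in source-oil larvae, against 19.7 ± 3.92 CPM in source-series controls (SD, n = 3 each). Its log2 fold change with slick oil was -2.24 (SE 0.25, adjusted p = 5.98e-08 by edgeR's quasi-likelihood test), and with source oil it was 0.21 and not called. DBP, another D-box activator, stood at 23.6 ± 4.92 CPM in slick-oil larvae, against 12.3 ± 6.90 CPM in the controls (SD, n = 3 each; log2 0.97, SE 0.24, edgeR adjusted p = 0.00338). TEF was higher by 1.13 (SE 0.09), and BHLHE40, an E-box repressor, was lower (-0.56, SE 0.12). With source oil at 72 hpf, 1 of 11 was higher (TEF, 0.63) and 2 were lower (BHLHE40, -0.86, and HLF, -0.66), where 11.4% and 9.04% of all genes were, and 5 were called without control library 9. With source oil at 24 hpf TEF was higher (0.84) and AANAT, an enzyme of melatonin synthesis in the pineal gland and retina, was lower (-1.66), of 11 measured. Of all genes 3.98% were called higher and 1.44% lower in that comparison. AANAT was low in both groups, at 1.8 ± 0.93 CPM with source oil, against 5.9 ± 2.7 CPM in the controls (SD, n = 3 each). The count of 2 was 1 without control library 1 or with the second column in its place. With slick oil TEF was the 1 gene called of 9 at 24 hpf (0.66) and of 11 at 48 hpf (0.47), where 2.19% and 2.68% of all genes were called. The count at 24 hpf was 0 without control library 2. At 48 hpf it was 0 without control library 6 or slick-oil library 5, and 4 without control library 4 or slick-oil library 4. The list's median log2 fold change lay between -0.21 and 0.06 in the 5 comparisons.

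Of 22 further clock regulators 20 were measured in each oil comparison. With slick oil at 72 hpf 5 of 20 were called, where 18.6% of all genes were. Of these, 1 was higher and 4 were lower, among them ARNTL2, the paralog of ARNTL (-1.24), RORA (-0.64), a ROR receptor like RORB, and HDAC3, a corepressor that works with NR1D receptors (-0.42). With source oil at 72 hpf 4 of 20 were called, where 20.4% of all genes were, so both counts lie near the background. Of the 4, 2 were higher, the deacetylase SIRT1 (0.52) and NAMPT, which supplies its cofactor (0.47), and 2 were lower, among them RORA (-0.46), and the count was 2 by DESeq2 and without control library 9 or source-oil library 7. With source oil at 24 hpf RORA alone of the 20 was called (-0.28), near the background, where 5.42% of all genes were called. DESeq2 did not make the call of RORA. That call was also lost with the second column of control 1 and without control library 1 or 2 or source-oil library 2 or 3. With slick oil at 24 and 48 hpf 0 of 20 were called by edgeR's quasi-likelihood test (1 without slick-oil library 3 at 24 hpf or library 4 at 48 hpf), where 2.19% and 2.68% of all genes were called. The list's median log2 fold change lay between -0.03 and 0.08.

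Of 14 photoreceptor and pineal markers, which belong to tissues that carry clocks of their own, those measured were lower with oil in several comparisons. With source oil 3 of 6 were lower at 24 hpf and 8 of 10 at 72 hpf, and with slick oil 0 of 5 at 24, 5 of 9 at 48 and 6 of 9 at 72 hpf. AANAT and ASMT also stand among the clock outputs above, and the 3 lower with source oil at 24 hpf include AANAT. The share of all genes called lower was 1.44% and 9.04% with source oil at 24 and 72 hpf, and 0.569%, 0.759% and 10.1% with slick oil at 24, 48 and 72 hpf. Their summed level at 72 hpf was 1461 to 1652 CPM in slick-oil larvae and 1108 to 1239 CPM in source-oil larvae, against 2317 to 3127 CPM in source-series controls. These sums include OPN1LW, which ran from 3.70 to 705 CPM among those controls. It reached at most 1.5 CPM in source-oil and 0.72 CPM in slick-oil larvae. At 48 hpf the summed level of the markers was 712 to 1283 CPM in slick-oil larvae, against 1333 to 1758 CPM in slick-series controls. Set against the controls at 72 hpf, RORB and these markers were both lower. Between the oils at 72 hpf RORB was lower with slick oil, and 2 of 10 markers were called higher and 0 lower. Between 24 and 48 hpf in slick-series controls RORB was lower and most markers were higher at 48 hpf. Between 48 and 72 hpf in source-series controls RORB was higher at 72 hpf, and 5 of 10 markers were higher and 2 lower. Their part in the clock gene results was not tested. Of the neuron markers, 1 of 8 was lower with slick oil and 3 of 8 with source oil at 72 hpf, and 0 were called in the other oil comparisons. Beside the shares of all genes given above, liver markers were called 4 higher of 8 with source oil at 24 hpf, 3 higher and 1 lower of 7 with source oil at 72 hpf, and 4 lower of 7 with slick oil at 72 hpf. Muscle markers were called 2 higher of 7 with source oil at 24 hpf, 1 higher of 5 with source oil at 72 hpf and 2 lower of 5 with slick oil at 72 hpf. Their part in the clock gene results was not tested either. Of glucocorticoid and stress targets, PCK1 was higher with source oil at 24 hpf (0.71) and lower with source and slick oil at 72 hpf (-0.52 and -0.55), SGK1 was higher with source oil at 72 hpf (0.47), and no other was called with oil.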

How the data were processed

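Whole-animal RNA libraries were prepared from 200 ng of total RNA with a TruSeq kit, per the labels' protocols. The deposited tables hold raw counts per row, 1 column per library, beside log2 fold changes and p-values (raw and adjusted) that the authors made, per the file headers. The submitters' processing notes list HTSeq, DESeq2 and build hg19 with no versions or roles. No aligner or fish reference is given in the sources used here. Rows carry human symbols, so counts of close paralogs may share reads, and whether counting used strand is not given either.

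Columns were matched to the labels by library name. Of 37 library columns, 29 were used, 1 more in an alternative only, and 7 were not used. Those 7 stand under the header of another group than their name gives and are copies of used libraries. Source oil at 24 hpf was fitted in its own table. A control column of that table shares the library name of control 1. The running number of the used column directly precedes those of the other source-series controls at 24 hpf. That of the spare column directly precedes those of the slick-series controls at 24 hpf. Which of the pair is source-series control 1 could not be settled from the labels. Slick-series control 1 at 24 hpf has no column under its own name. Whether the spare column is that slick-series sample could not be settled either.

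Each oil comparison was fitted alone, and age, series and oil-to-oil contrasts were fitted jointly over 23 libraries. Fits used edgeR 4.0.16 in R 4.3.3 (filterByExpr, TMM scaling, the quasi-likelihood F test and Benjamini-Hochberg adjustment over all genes tested, called under 0.05), after testing on simulated data. SEs are the log2 fold change over the square root of F. Levels are CPM after TMM scaling, and correlations used log2(CPM + 0.5). Alternatives were RLE scaling, other filters on low counts (none, or a mean of 10 counts), DESeq2 1.42.0, summed rows of a symbol, joint or separate fits, a replicate block, 1 library left out at a time, and the 2 disputed 24 hpf control columns. The named genes are all 10 clock genes, at most 4 called genes per list and comparison by adjusted p, and the 3 genes most like each clock gene. The clock genes and lists were chosen with earlier results of these data known.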

Additional observations from a re-analysis of the deposited data

Results flagged for a closer look

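Slick-oil and source-oil larvae differed from each other at 72 hpf in 5 of 8 clock genes by the test of the difference itself (edgeR's quasi-likelihood test, joint fit). In that contrast 14.8% of all genes tested were called. The log2 difference, slick minus source oil, was 1.69 for PER1, 1.70 for PER3, -1.20 for ARNTL, 0.69 for NR1D2 and -0.65 for RORB. All 5 kept their direction and their call when any 1 of the 6 libraries was left out. Oil, dose, series and time of sampling cannot be told apart in these differences.

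The slick-oil effect differed between 72 and 48 hpf in 6 of 8 clock genes by the same kind of test, where 7.13% of all genes tested were called. The log2 difference of the effects, 72 minus 48 hpf, was 1.73 for PER1, 0.63 for PER2, 1.62 for PER3, -0.88 for ARNTL, 1.81 for NR1D2 and -0.97 for RORB. With 1 library left out, PER2 lost its call in 7 of 12 fits. The controls were of the slick series at 48 hpf and of the source series at 72 hpf, so age and control series cannot be told apart.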

How the results depend on the processing

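For the 52 calls of single clock genes, 296 of 313 values under alternatives kept the direction and the call, 16 lost the call and 1 reversed, and of 340 values with 1 library left out 298 kept the call and 42 lost it. RLE scaling and DESeq2 moved the median of all genes by less than 0.1 on the log2 scale. Slick-series controls at 24 hpf have 2 libraries, so that leaving 1 out leaves a lone control assumed to vary like the oil group. The cause of each change below was not tested, except that leaving out a library leaves fewer samples.

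The number of clock genes called with source oil at 24 hpf was 3, and it was 1 with the second column of control 1, where NR1D2 turned to -0.15. With slick oil at 24 hpf the number was 2, and it was 0 by DESeq2, 0 in the joint fit and 0 with the 48 hpf library that its table also lists as a control. With that library PER3 turned to -0.19, CLOCK to -0.0093, NR1D2 to -0.25 and RORB to 0.12, and NR1D2 was -0.015 in the joint fit. The number called between the control series at 48 hpf was 0, against 1 with no filter and 2 when the 2 groups were fitted alone, and the number between 24 and 48 hpf under slick oil was 5, against 3 by DESeq2.

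Replicate numbers at 24 hpf are shared only as numbers. Deviations of same-numbered source-series libraries correlated at 0.14, 0.02 and 0.13, and oil library 2 correlated best with control library 3 (0.09). With the number as a replicate block, source oil at 24 hpf gave 5 clock genes and 852 genes in all, against 531 without it, and slick oil at 24 hpf gave 1 clock gene, with NR1D2 at -0.0050.

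With 1 library left out, the clock genes called numbered 3 to 4 with source oil at 24 hpf and 3 to 5 at 72 hpf. With slick oil they numbered 0 to 3 at 24 hpf, 0 to 3 at 48 hpf and 7 to 8 at 72 hpf, and between control series 0 to 1. Between ages they numbered 5 to 6 in slick-series controls, 3 to 4 in source-series controls, and 3 to 5 and 6 to 7 under slick oil. Between oils the number was 5 throughout, and for the differences of slick-oil effects it was 0 throughout and 5 to 7. The genes with values on both sides of 0 were not called with all libraries in. With source oil at 24 hpf they were PER3 (-0.16 to 0.030), CLOCK (-0.15 to 0.10) and NR1D2 (-0.062 to 0.090), and at 72 hpf CLOCK (-0.043 to 0.15). With slick oil at 24 hpf they were PER1 (-0.22 to 0.16), PER3 (-0.015 to 0.29) and NR1D2 (-0.15 to 0.14), and at 48 hpf CRY1 (-0.078 to 0.13), CLOCK (-0.11 to 0.18) and RORB (-0.065 to 0.026). Between control series they were CLOCK (-0.054 to 0.071) and NR1D2 (-0.00049 to 0.28). Between ages they were PER1 (-0.15 to 0.55), CLOCK (-0.11 to 0.070) and ARNTL (-0.21 to 0.12) in source-series controls, PER2 (-0.13 to 0.22) and NR1D2 (-0.056 to 0.28) under slick oil from 24 to 48 hpf, and RORB (-0.061 to 0.072) from 48 to 72 hpf. In the difference of slick-oil effects, 48 minus 24 hpf, they were PER2 (-0.29 to 0.057) and ARNTL (-0.016 to 0.12).

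Over all genes the number called was 1833 with source oil at 72 hpf against 1203 by DESeq2, and 1673 with slick oil at 72 hpf against 975. With slick oil at 24 hpf it was 196, against 105 by DESeq2 and 17 with the 48 hpf library, and with slick oil at 48 hpf it was 244, against 425 in the joint fit. It was 0 for the difference of slick-oil effects between 48 and 24 hpf, against 1 by DESeq2. With 1 library left out, the numbers behind the shares of all genes ran from 344 to 571 with source oil at 24 hpf, from 63 to 489 with slick oil at 24 hpf, from 102 to 941 with slick oil at 48 hpf, from 114 to 828 between control series (504 with all) and from 360 to 1063 for the difference of slick-oil effects, 72 minus 48 hpf (696 with all).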

Other observations

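Some of the genes whose levels followed a clock gene most closely over the 23 libraries belong to other known systems. After ATP8B2, NR1D2 was followed by FAM214A (Pearson r 0.94) and PPARA (0.94), a lipid-sensing nuclear receptor. CRY1 was followed by CNOT6L (0.94), a subunit of an mRNA deadenylase, and ABCG2 (0.94), an efflux transporter. PER2 was followed by RYR2 (0.89), a calcium release channel, and SORL1 (0.89), and PER3 by the calcium channel subunit CACNA1B (0.81) and BNC2 (0.81). CLOCK was followed by VLDLR (0.89) and RAB3C (0.89), RORB by ADSS (0.90) and F2 (0.90), which encodes prothrombin, ARNTL by MCTP2 (0.76) and CTSK (0.76), and PER1 by ANK1 (0.73) and VWF (0.72). These are descriptions over libraries that share groups and ages.

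Of 7 listed glucocorticoid and stress targets 4 were measured in the age contrasts. All 4 were called higher at 72 than at 48 hpf in source-series controls and under slick oil. The share of all genes called higher was 17.5% and 21.4%. The median log2 differences of the 4 were 1.5 and 1.98, beside medians near 0 over all genes. Between 24 and 48 hpf, 1 of the 4 was higher at 48 hpf in slick-series controls, where 21.4% of all genes were. Under slick oil 1 was lower at 48 hpf, where 18.6% of all genes were.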
